A study of Mus musculus with 3 samples.

Results

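Acetylation of histone H3 at lysine 27 (H3K27ac) marks active promoters and enhancers, and chromatin immunoprecipitation was used to map it in spheroids grown from mouse pancreatic epithelium. The stretches described here are 100 kb windows of chromosomes 1 to 19 in which H3K27ac peaks of a single condition were bunched together. The windows were chosen by the peak positions themselves: a window was kept when at least 3 peaks of one list, none of them overlapping a peak of the other list, had their midpoint in it, and 0 such peaks of the other list did. Of 11370 windows with a peak of either list, 678 met this rule. In 420 of them (3.69% of the 11370) the peaks were found only after caerulein, and these are called post-caerulein windows. In the other 258 (2.27%) they were found only without treatment, and these are called untreated windows. The post-caerulein list was the longer, and with 36846 highest-scored peaks taken from each list the counts were 348 and 287, an excess of 61 in place of 162.

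Both conditions were spheroid cultures of pancreatic epithelial cells from wild-type C57BL/6J mice, grown in the same hormone- and growth factor-supplemented medium. One came from untreated mice and the other from mice that had been given caerulein, a cholecystokinin analogue that overstimulates acinar cells and causes pancreatitis. Dose, interval, and the age and number of the mice are not given in the sources used here, and whether each culture pooled animals is not given either. With a single H3K27ac library per condition (1 each), differences between them have no replicates behind them and are given without a test; the series also has 1 input library of untreated spheroids, not analysed here. The autosomal lists held 37924 peaks after caerulein and 36846 without treatment, and sequencing depth is unknown.

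Enhancers of a gene often lie in groups along a chromosome, inside its introns or in the neighbouring intergenic stretch, and such groups tend to gain or lose acetylation together when the activity of a locus changes. Pancreatic duct cells line the ducts and secrete bicarbonate, whereas acinar cells make digestive enzymes and can take on duct-like features after injury. The labelled cell type was checked at gene starts taken from RefSeq promoters (GRCm38.p6; the lists use GRCm38). A peak covered the start of 15 of 16 ductal marker genes in both lists, and the exception, Aqp5, was covered in the untreated list. For acinar markers 3 of 18 starts were covered in both lists, 14 in neither, and that of Nr5a2 after caerulein alone. No start of the 11 mesenchymal markers was covered in either list, and 8 of 9 immune, 7 of 8 endothelial and 11 of 13 endocrine starts were uncovered in both.

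Most condition-specific peaks of the windows lay away from gene starts, and the few starts they did cover give a view of the sequence beneath. On the chromosomes with promoter sequences, 2.23% of list-only peaks in post-caerulein windows covered the start of a protein-coding gene, against 4.59% elsewhere. In untreated windows the share was 2.42% (exact 95% interval 1.525 to 3.645), and 2.71% elsewhere, so these windows did not stand apart. Of all peaks overlapping the other list, 26.96% after caerulein and 26.61% without treatment covered a start. By window, a list-only peak covered the start of a protein-coding gene in 32 of 399 post-caerulein windows (8.02%, exact 95% interval 5.55 to 11.1) and in 20 of 247 untreated windows (8.10%, 5.02 to 12.2), on the same chromosomes. The 3 promoters per direction under the highest-scored of these peaks are shown, as the 250 bases before the start from RefSeq (GRCm38.p6), written 5′ to 3′ on the strand of the gene. Capitals mark exact matches, on either strand, to the letters of 4 motifs. AP-1, the Fos and Jun dimer, was searched as TGANTCA. TEAD, the partner of YAP in Hippo signalling, was searched as GGAATG. RUNX factors were searched as TGTGGT. KLF and SP factors, which bind GC-rich promoters, were searched as GGGCGGG. The letters of 4 further motifs have no match in these 6: TGTTTAC for forkhead factors, TCAAGGTCA for nuclear receptors of the NR5A family, CCGGAAG for transcription factors of the ETS family, and AGATAAG for those of the GATA family. Over all 20084 promoters the shares with a match were 6.18% for AP-1, 11.5% for TEAD, 12.2% for RUNX, 31.7% for KLF/SP, 2.64% for forkhead, 0.329% for NR5A, 9.21% for ETS and 2.39% for GATA.

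After caerulein the 3 promoters belonged to Cald1, which encodes the actin-binding protein caldesmon (chr6:34709194-34709443, plus strand), Slco2a1, a prostaglandin transporter (chr9:103008237-103008486, plus strand), and Wbp1l (chr19:46623151-46623400, plus strand).
Cald1: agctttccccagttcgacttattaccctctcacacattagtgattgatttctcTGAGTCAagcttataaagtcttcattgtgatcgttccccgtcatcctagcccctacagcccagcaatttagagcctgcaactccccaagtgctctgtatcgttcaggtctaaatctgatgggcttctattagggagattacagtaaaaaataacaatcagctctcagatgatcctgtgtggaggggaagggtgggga
Slco2a1: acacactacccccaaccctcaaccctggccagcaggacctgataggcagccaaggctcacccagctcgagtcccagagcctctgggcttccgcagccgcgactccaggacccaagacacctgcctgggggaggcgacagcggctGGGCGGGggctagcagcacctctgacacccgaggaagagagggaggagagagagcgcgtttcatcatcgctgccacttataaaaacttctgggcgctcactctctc
Wbp1l: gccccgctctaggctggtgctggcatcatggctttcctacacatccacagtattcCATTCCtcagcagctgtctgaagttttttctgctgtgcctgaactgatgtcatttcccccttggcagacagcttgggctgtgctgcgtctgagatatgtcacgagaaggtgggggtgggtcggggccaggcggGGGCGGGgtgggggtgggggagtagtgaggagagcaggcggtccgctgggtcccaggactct
Their own-list peak scores were 857.54, 822.03 and 749.79. Cald1 has an AP-1 match, Slco2a1 a KLF/SP match, and Wbp1l a TEAD and a KLF/SP match. The starts used for Cald1 (34709444) and Wbp1l (46623401) are internal, since the genes begin at 34598495 and 46599106. Cover of the outer starts of these genes is not given here.

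Without treatment they belonged to Aqp5, a water channel of secretory epithelia (chr15:99590778-99591027, plus strand), Ifitm3, an interferon-induced antiviral membrane protein (chr7:141010745-141010994, minus strand), and Fhl2, a LIM-domain cofactor (chr1:43163962-43164211, minus strand).
Aqp5: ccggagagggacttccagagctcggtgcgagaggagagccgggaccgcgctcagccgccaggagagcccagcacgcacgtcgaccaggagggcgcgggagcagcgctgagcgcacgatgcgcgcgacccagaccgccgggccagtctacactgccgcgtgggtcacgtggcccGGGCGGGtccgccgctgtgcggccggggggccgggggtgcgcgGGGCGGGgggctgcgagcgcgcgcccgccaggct
Ifitm3: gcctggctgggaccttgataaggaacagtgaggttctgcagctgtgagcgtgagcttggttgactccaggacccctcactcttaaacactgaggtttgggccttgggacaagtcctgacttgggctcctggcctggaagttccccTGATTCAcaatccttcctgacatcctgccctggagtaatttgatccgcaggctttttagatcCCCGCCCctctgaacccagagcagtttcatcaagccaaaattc
Fhl2: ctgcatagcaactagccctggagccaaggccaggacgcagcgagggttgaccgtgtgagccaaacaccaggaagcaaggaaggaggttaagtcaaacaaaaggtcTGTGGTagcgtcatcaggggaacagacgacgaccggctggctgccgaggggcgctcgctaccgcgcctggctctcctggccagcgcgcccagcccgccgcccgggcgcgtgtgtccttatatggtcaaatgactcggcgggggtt
The peaks over these starts scored 3100, 3100 and 2114.98. Aqp5 has a pair of KLF/SP matches, Ifitm3 an AP-1 and a KLF/SP match, and Fhl2 a RUNX match. The start used for Fhl2 (43163961) is internal too, since the gene begins at 43198343 on the minus strand.

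Promoters under list-only peaks of the windows were poor in CpG dinucleotides, the bases that are dense in the promoters of broadly active genes. The median was 7 CpG per 250 bases for 35 promoters of post-caerulein windows and 3.5 for 24 promoters of untreated windows. It was 17 for the 10572 promoters under shared peaks of both lists, 3 for the 8917 promoters under no peak, and 10 over all 20084 promoters. AP-1 letters were present in 6 of the 24 untreated promoters (25.0%), which belonged to Ifitm3, Krt13, Nlrp6 and Prxl2a, with 2 promoters each for Krt13 and Prxl2a. They were present in 2 of the 35 post-caerulein promoters (5.71%, Cald1 and Slc51b) and in 6.18% of all promoters. The other motifs with a match under post-caerulein and untreated windows were TEAD (14.3% and 4.17%), RUNX (17.1% and 16.7%), KLF/SP (31.4% and 16.7%), ETS (5.71% and 0%) and GATA (8.57% and 0%), and forkhead and NR5A letters had 0 matches in both. With so few promoters, several of them of the same gene, these shares are a description of the letters only.

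The windows held 1554 of 6681 post-caerulein-only peaks (23.3%) and 945 of 5229 untreated-only peaks (18.1%). Windows fell off steeply with the number of peaks: 239 post-caerulein windows had 3 list-only peaks, 110 had 4, 44 had 5, 20 had 6, and 7 had from 7 to 9. The untreated side had 152, 69, 18 and 13, and 6 with 7 to 9. Some windows with 3 or more peaks were left out because the other list also had a condition-specific peak there. They numbered 104 of 524 on the post-caerulein side and 71 of 329 on the untreated side.

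**Figure D1:**
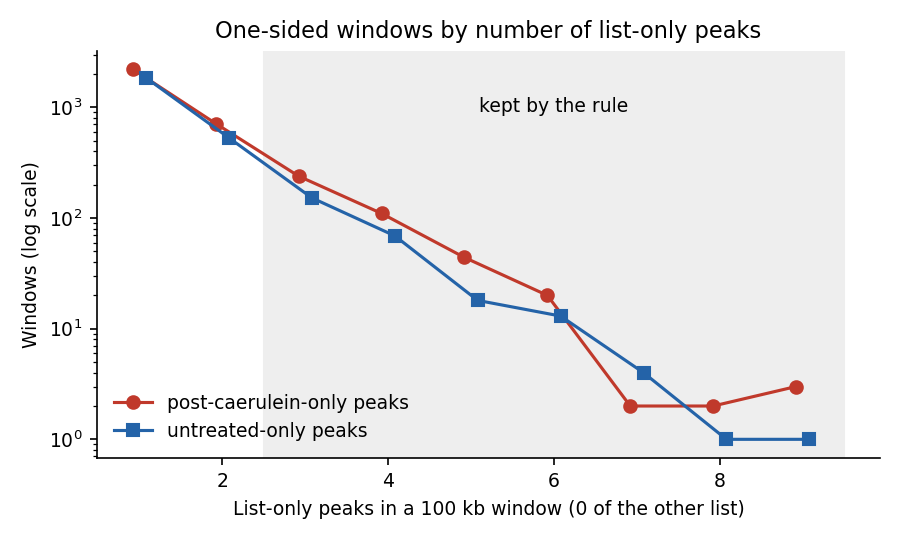
Number of 100 kb windows (log scale) by the number of list-only H3K27ac peaks they hold, with 0 list-only peaks of the other list; circles are post-caerulein-only and squares untreated-only peaks, and the shaded range is kept by the rule. Counts fall from 239 and 152 windows at 3 peaks to 3 windows and 1 window at 9.

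At the border of the rule the values changed gradually. Windows with exactly 3 post-caerulein-only peaks were covered over a median of 18.4 kb after caerulein and 10.5 kb without treatment, and those with 2, just outside, over 13.3 and 8.73 kb. On the untreated side the windows with 3 peaks had medians of 10.6 kb after caerulein and 18.8 kb without treatment, and those with 2 had 7.72 and 12.6 kb. Windows with 3 or more peaks of one list and 1 of the other, also outside, numbered 80 and 56. There the medians were 26.6 and 20.1 kb on the post-caerulein side and 18.5 and 25.1 kb on the untreated side, after caerulein and without treatment.

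The bunched peaks were mostly weak in the ranking of their own list. The score is that of the authors' peak caller; no header defines it, and it is used here only to rank peaks within a list. The median score of list-only peaks in post-caerulein windows was 101.21, against 91.65 for post-caerulein-only peaks elsewhere and 526.37 for the whole list. In untreated windows it was 137.62, against 103.94 elsewhere and 681.38 for the whole list. Scores that reached the list median were held by 61 of 1554 peaks (3.93%, 3.02 to 5.01) in post-caerulein windows and 103 of 945 (10.9%, 8.98 to 13.1) in untreated windows. At least 1 such peak was present in 53 of 420 post-caerulein windows (12.6%) and in 80 of 258 untreated windows (31.0%). When list-only peaks under the lower quartile of their list were left out, 54 and 50 windows met the rule, and 2 and 4 did at the median, so that the excess of post-caerulein windows was 4 at the first limit and -2 at the second.

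The distances between list-only peaks of a window were mixed. The peaks spanned a median of 46.8 kb in post-caerulein windows and 44.0 kb in untreated windows, with median distances of 12.5 and 11.3 kb between neighbours. In 109 post-caerulein windows (26.0%) and 85 untreated windows (33.0%) no peak of the other list lay between the first and the last of them. Another peak of the same list lay within 1 kb of 629 of the 1554 post-caerulein-only peaks (40.5%) and of 383 of the 945 untreated-only peaks (40.5%), against 24.5% and 20.0% of list-only peaks elsewhere; a higher share follows from choosing windows by the number of such peaks. Joining peaks of a list within 1 kb before the comparison left 208 and 138 windows in place of 420 and 258.

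Peaks that both lists shared leaned the same way as the list-only peaks around them. The rule did not count shared peaks, but the same overlap sorted peaks into shared and list-only. It also left only shared peaks of the other list placed in a window, so the shared peaks are not independent of the choice. They come from the same 2 libraries, and the values are a description. In post-caerulein windows the shared peaks covered a median of 15.6 kb after caerulein and 12.03 kb without treatment, and they covered more after caerulein in 369 of 394 windows that had them in both lists (93.7%, 90.8 to 95.9). In untreated windows the medians were 9.502 and 11.4 kb, and the shared peaks covered more after caerulein in 31 of 232 (13.4%, 9.26 to 18.4). The share was 57.3% over all windows with shared peaks, and 57.1% over 489 windows that held 3 or more list-only peaks of both kinds mixed. Shared peaks covering at least 1.5 times more after caerulein were found in 86 of 394 post-caerulein windows and 0 of 232 untreated windows, and at least 1.5 times more without treatment in 0 of 394 and 47 of 232. The upper exact binomial limits are 1.58% for 0 of 232 and 0.932% for 0 of 394. They count windows alone, some of which adjoin, and say nothing of variation between cultures.

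Widths of single matched peaks describe the same shared peaks in another way and are not independent of the lengths above. Among peaks paired with exactly 1 peak of the other list, the median width ratio (post-caerulein over untreated) was 1.19 over 1262 pairs in post-caerulein windows, 0.888 over 694 pairs in untreated windows and 1.02 over all 26529 pairs. The post-caerulein peak was the wider in 81.1%, 21.5% and 55.7% of pairs. Pairs that differed at least 2-fold in width with the post-caerulein peak wider numbered 139 in post-caerulein windows and 3 in untreated windows. With the untreated peak wider they numbered 2 and 85.

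Adding list-only and shared peaks gives the whole covered length, whose direction is largely set by the rule, since it includes the list-only peaks that chose the windows. As a description, the covered length of post-caerulein windows had a median of 22.1 kb after caerulein and 12.03 kb without treatment. For untreated windows the medians were 9.502 and 19.8 kb, against 7.07 and 6.78 kb over all windows with a peak. The median log2 ratio of post-caerulein to untreated covered length, with 1 kb added to each, was 0.81 in post-caerulein and -0.96 in untreated windows. In 1 of the 258 untreated windows the longer cover was nevertheless that after caerulein. This exception, named after its value was seen, lay at App, the amyloid precursor gene (chromosome 16, 85100001 to 85200000), with 50.2 kb after caerulein and 49.4 kb without treatment.

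**Figure D2:**
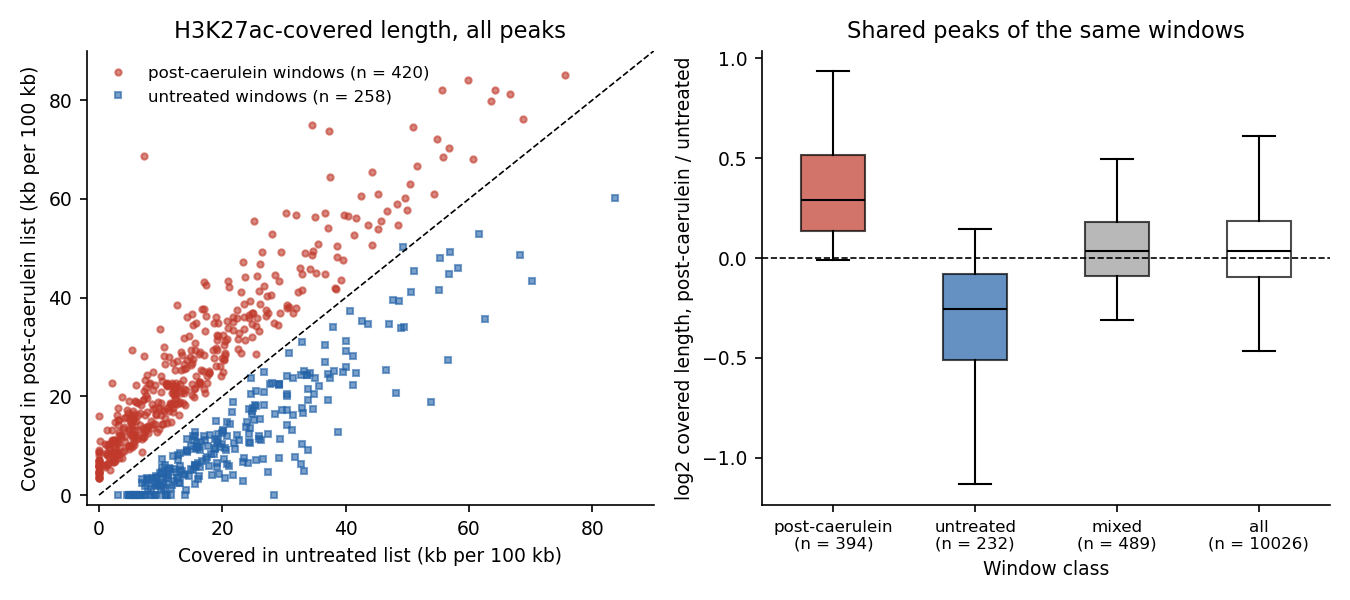
Left, H3K27ac-covered length in kb per 100 kb window in the untreated (x axis) and post-caerulein list (y axis), 1 point per window, with the line of equal length dashed. Right, log2 ratio of the length covered by shared peaks alone (box, quartiles with the median; whiskers, 5th to 95th percentile) by window class. The box of the post-caerulein windows lies above the 0 line and that of the untreated windows below it, but single windows of both classes lie on either side. Mixed windows and all windows with a peak have medians near 0.

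Stretches next to the windows also held more list-only peaks of the same kind than of the other. The 100 kb stretches on either side of post-caerulein windows had a mean of 0.981 and 0.948 post-caerulein-only peaks and 0.250 and 0.293 untreated-only peaks, against 0.588 and 0.460 over all windows with a peak. The means over all windows with a peak leave out empty windows, whereas the neighbouring stretches were counted with or without a peak. Counted like the neighbours, stretches 400 to 500 kb from post-caerulein windows had means of 0.357 to 0.418 and 0.248 to 0.346. Next to untreated windows the means of untreated-only peaks were 0.826 and 0.725, and those of post-caerulein-only peaks 0.287 and 0.271. A window of the same direction adjoined 74 of the 420 post-caerulein windows and 35 of the 258 untreated windows, and one of the other direction adjoined 4 of each. Most windows thus had no adjoining window of their own direction.

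**Figure D3:**
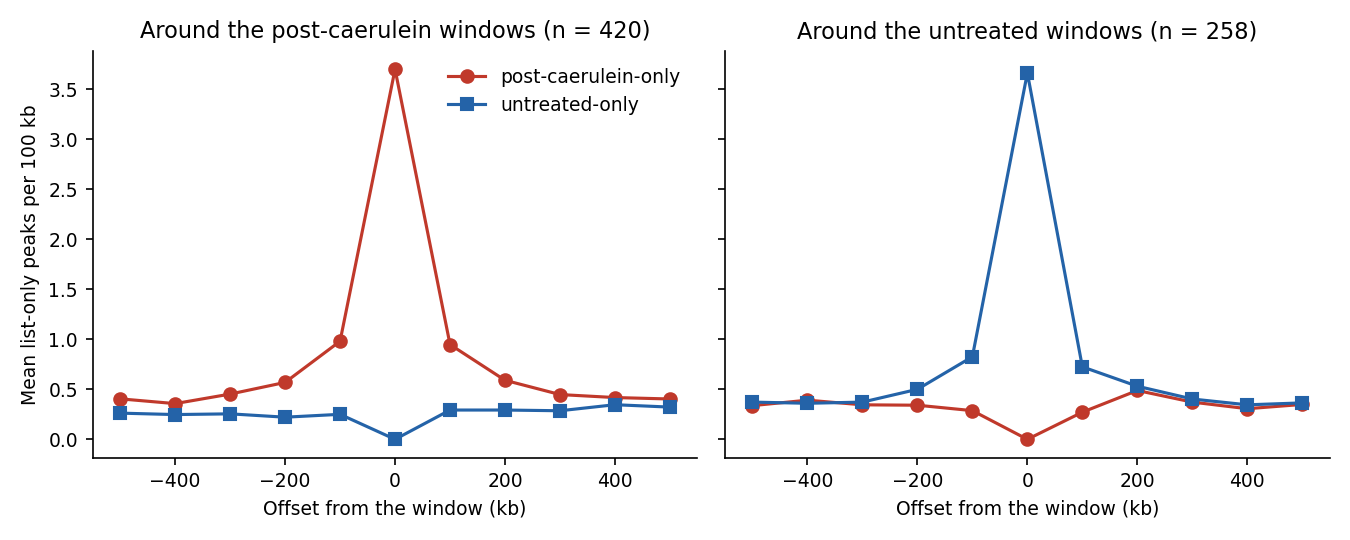
Mean number of post-caerulein-only (circles) and untreated-only peaks (squares) per 100 kb, by distance in kb from the post-caerulein windows (left) and the untreated windows (right). The values at 0 kb are fixed by the rule; the excess of the same kind of peak is present at 100 kb and small from 300 kb on.

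The longest runs of adjoining windows took in 3 windows each. After caerulein they lay at Ano6, which encodes a phospholipid scramblase and ion channel (chromosome 15, 95900001 to 96200000; 15 list-only peaks, covering 89.2 kb after caerulein with shared ones, against 55.4 kb without treatment), in Msi2, an RNA-binding regulator of progenitor cells (chromosome 11, 88400001 to 88700000; 12 peaks, 194.7 and 137.5 kb), at Cpe, Klhl2 and Msmo1 on chromosome 8 (10 peaks, 89.1 and 43.5 kb), and in a stretch of chromosome 12 without a protein-coding gene (9 peaks, 46.5 and 24.5 kb). The untreated side had 1 such run, at Foxo1, a forkhead transcription factor restrained by insulin signalling (chromosome 3, 52200001 to 52500000; 10 peaks, 25.9 kb after caerulein and 57.2 kb without treatment). Ano6 (95790843 to 95975472) reaches only 1 of the 3 windows of its run, and Foxo1 (52268337 to 52350109) reaches 2 of 3. At 4 places a post-caerulein and an untreated window met. These lay between Rell1 and Pgm2, at Grhl2, a regulator of epithelial identity, at App, and at Cxxc5 and Sting1, with Ube2d2a at the border.

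The post-caerulein windows with most list-only peaks had 6 to 9 of them. Pfkfb3, which makes the activator of phosphofructokinase in glycolysis, had 9 list-only peaks in its window (chromosome 2, 11400001 to 11500000), which was covered over 56.7 kb after caerulein and 31.9 kb without treatment. The window at Tox, an HMG-box transcription factor gene, also had 9 (chromosome 4, 6900001 to 7000000; 52.8 and 28.0 kb). So did a window inside Spata13 (chromosome 14, 60600001 to 60700000; 33.6 and 9.97 kb). In all 3 the untreated list also had peaks, 8, 6 and 4 of them, so the stretch was acetylated in both conditions and the list-only peaks filled in between.

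A window with 8 list-only peaks held Uox and Dnase2b (chromosome 3, 146600001 to 146700000; 30.0 kb after caerulein and 10.6 kb without treatment). Those with 7 were at Slc16a12, a carrier of the monocarboxylate family (38.5 and 12.6 kb), and at Ubxn11, Sh3bgrl3, Cep85 and Zpld2 on chromosome 4 (49.3 and 29.6 kb). Of the windows with 6, one lay within Peak1, a scaffold pseudokinase gene (43.2 and 17.0 kb), and one within Igf1r, the receptor gene for insulin-like growth factor (42.2 and 21.1 kb). The scores of these peaks reached from 50.97 to 591.02, and a peak at or above the list median was present at Tox, Spata13, Slc16a12 and Peak1, 1 in each.

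Tns1 encodes the focal adhesion protein tensin. Its window (chromosome 1, 74000001 to 74100000, inside the gene at 73910232 to 74124548) was covered over 68.6 kb after caerulein and 7.38 kb without treatment. The 6 list-only peaks there were 1474 to 14685 bp wide, and the widest 3 scored 1134.32, 1355.33 and 1612, all above the list median. The adjoining window was a member too, and together they were covered over 96.8 and 14.6 kb. Tns1 held the 1 post-caerulein window of the rule that still had 3 list-only peaks at or above the list median. A second window that met the rule at that limit, in Zbtb20, was not a member without it.

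Ranked by their highest-scored list-only peak, 5 further post-caerulein windows stood beside that of Tns1. The highest score in any post-caerulein window, 3013.86, was in that of Cxxc5, a zinc-finger gene that responds to BMP signalling (3 list-only peaks; 37.8 kb after caerulein and 16.7 kb without treatment). A window without a protein-coding gene, whose middle lies 333217 bp from an end of Usp25, had 6 list-only peaks, of which 1 scored 1820.62 and the others 51.29 to 106.3. Spns3, Cpe, a prohormone-processing carboxypeptidase gene, and Zbtb16, a zinc-finger repressor gene, had highest scores of 1606.28, 1540.04 and 1406.28. The Zbtb16 window was covered over 74.96 and 34.6 kb and that of Cpe over 42.6 and 17.4 kb, after caerulein and without treatment.

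Among the untreated windows the 9 list-only peaks inside Prom1 (CD133, a surface protein of progenitor and duct cells; chromosome 5, 44000001 to 44100000) were the most. The window was covered over 7.57 kb after caerulein and 29.1 kb without treatment, and the peaks scored 57.56 to 411.12, all below the list median. Samd9l, an interferon-induced antiviral gene, had 8 in its window (chromosome 6, 3300001 to 3400000; 2.09 kb after caerulein and 11.9 kb without treatment), also all below the median. Windows with 7 were found within Abcc4, a multidrug and prostaglandin exporter gene (18.9 and 53.9 kb), within Mbnl1, a splicing regulator gene (60.2 and 83.6 kb), at Atp2b1, a plasma membrane calcium pump gene (13.3 and 31.3 kb), and in an intergenic stretch whose middle lies 164630 bp from an end of Atp2b1 (4.08 and 21.7 kb).

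Stronger peaks gathered on distal chromosome 7, at genes of the interferon-induced transmembrane family. The window from 140900001 to 141000000 holds Cox8b, Nlrp6, Pgghg, Ifitm5, Ifitm2 and Ifitm1, and it was covered over 4.96 kb after caerulein and 33.3 kb without treatment. Its 6 untreated-only peaks scored 125.57 to 3100, and 4 of them lay at or above the list median; one, scoring 1106.88, covered the start of Nlrp6, a sensor of inflammasomes in epithelia. The adjoining window, with Ifitm3, Ifitm6, B4galnt4, Pkp3 and Sigirr, had 4 untreated-only peaks of 1269.10 to 3100, all above the median, and was covered over 20.7 and 48.1 kb. The pair amounted to 25.7 kb after caerulein and 81.4 kb without treatment.

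Both Ifitm windows met the rule at the median score, as did those of Fhl2 and Itprid2, the 4 untreated windows that did. At Fhl2 (chromosome 1, 43100001 to 43200000) 3 adjoining untreated-only peaks ran from 43138907 to 43165243 with scores of 2114.98 to 3142.92. The window was covered over 12.8 kb after caerulein and 38.8 kb without treatment, while its shared peaks covered 12.8 and 12.7 kb. The window at Itprid2, a gene for an actin-interacting protein, had 6 untreated-only peaks of 66.16 to 2939.96 (chromosome 2, 79500001 to 79600000; 6.20 and 32.8 kb).

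**Figure D4:**
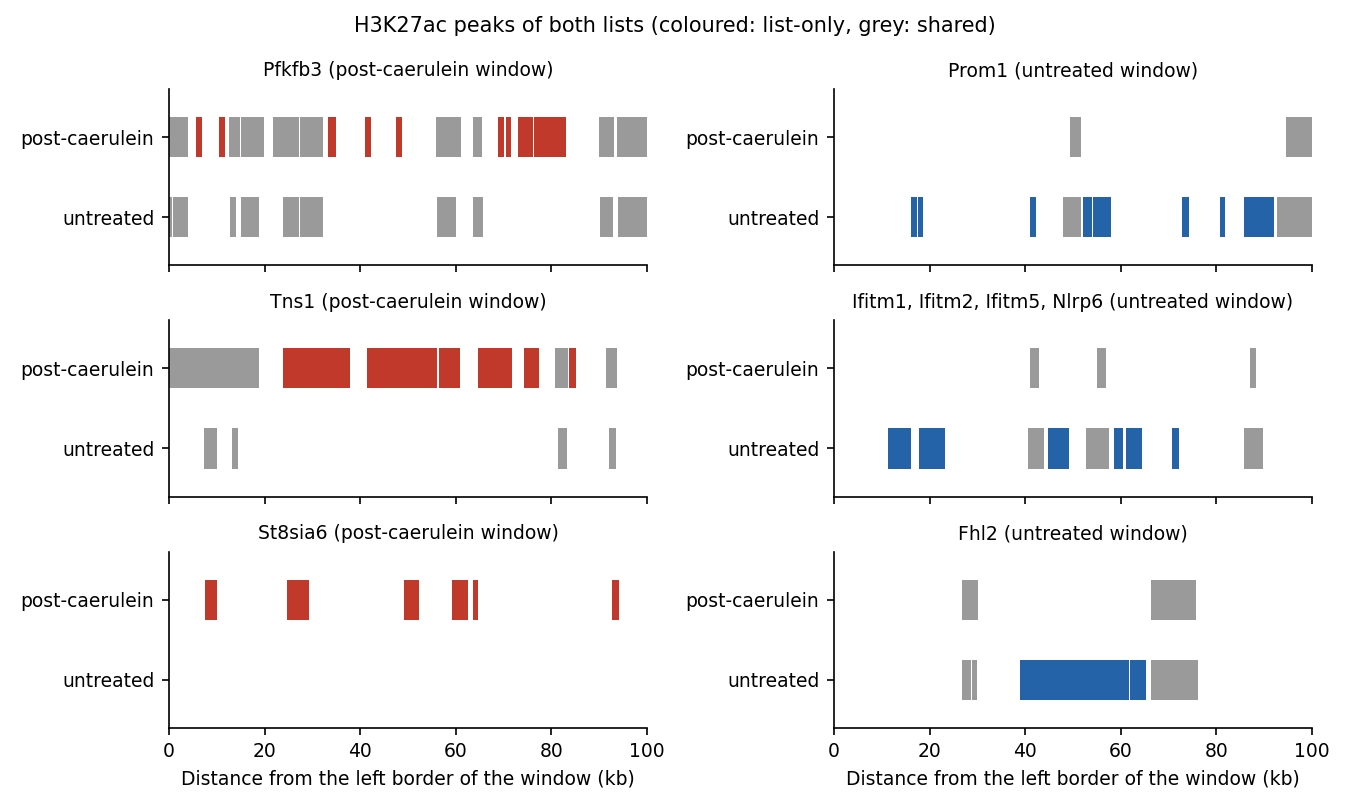
H3K27ac peaks of both lists in 6 windows, by distance in kb from the left border of the window; grey boxes are peaks that overlap a peak of the other list, coloured boxes are list-only peaks. At Pfkfb3 and Prom1 list-only peaks lie between or beside shared ones, at Tns1 and Fhl2 wide adjoining peaks fill a gap of the other list, and the St8sia6 window has no untreated peak.

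Further untreated windows with 6 list-only peaks lay at Tgfbr2, the type II receptor gene for TGF-beta (43.3 kb after caerulein and 70.1 kb without treatment), at Il20rb, a receptor chain gene for IL-20 family cytokines, with Nck1 (7.22 and 26.6 kb), and at Hopx, a homeodomain gene without DNA binding (6.46 and 24.2 kb). At Hopx a list-only peak scoring 557.90 covered a start of the gene. By its highest score, 3135.73, a window without a protein-coding gene came next after that of Fhl2. Its middle lies 55511 bp from an end of Gclc, a gene of glutathione synthesis, and it was covered over 7.80 and 31.8 kb.

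In 27 post-caerulein windows (6.43%) and 26 untreated windows (10.1%) the other list had no peak placed in the window. The largest of these after caerulein was at St8sia6, a sialyltransferase gene (chromosome 2, 13700001 to 13800000), with 6 peaks of 84.82 to 951.28 covering 15.9 kb, one of them over the start of the gene. Others held Slco2a1 (4 peaks, 7.84 kb), Pde3a (3 peaks, 9.20 kb) and the water channel gene Aqp1 (3 peaks, 7.04 kb). At Hmga2, an oncofetal chromatin protein gene, the 3 list-only peaks measured 9.12 kb, and shared cover added 1.74 kb after caerulein. The untreated cover of 0.139 kb came from a peak whose midpoint lay outside the window. On the untreated side, windows without any post-caerulein peak held Ceacam12 and Ceacam13 (6 peaks, 13.9 kb), and Mrps28 (3 peaks, 11.0 kb, scores of 79.99 to 3118.94). Another such window, with 6 peaks over 11.7 kb, starts at 25800001 on chromosome 4, at the edge of the fucosyltransferase gene Fut9 (25609333 to 25800003). A window of chromosome 4 whose middle lies 290005 bp from Actl7b had 3 peaks over 28.3 kb, including one of 21405 bp with a score of 3100.

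Gene ends, gene bodies and gene lengths were counted in the windows of each direction. A protein-coding gene end lay in 269 of 420 post-caerulein windows (64.1%, 59.3 to 68.6) and in 187 of 258 untreated windows (72.5%, 66.6 to 77.8), against 74.1% of all windows with a peak and 76.2% of the 499 mixed windows. The intervals of the 2 directions overlap, and with at least 4 list-only peaks per window the order turned, at 67.4% and 66.04%. Windows wholly inside the body of a gene made up 19.1% (15.4 to 23.1) and 16.7% (12.3 to 21.8), against 10.9% of all windows. No protein-coding gene touched 18.3% of post-caerulein and 12.02% of untreated windows, against 15.6%. Genes that touched a post-caerulein window had a median length of 45.3 kb and those that touched an untreated window 28.1 kb, against 17.5 kb over all 20661 autosomal protein-coding genes. Over genes that touched any window with a peak the median was 20.3 kb. A long gene crosses more windows, so these lengths follow in part from the counting.

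Windows of both directions were found on every autosome. The share of windows with a peak ran from 2.22% on chromosomes 14 and 17 to 5.03% on chromosome 10 for the post-caerulein direction, and from 1.03% on chromosome 12 to 3.04% on chromosome 4 for the untreated direction.

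Gene lists were set against the share of all autosomal protein-coding genes whose body touched a window: 569 genes (2.75%) for post-caerulein windows and 455 (2.20%) for untreated windows. Of genes that touched any window with a peak these were 3.44% and 2.75%. The lists were chosen with earlier results of these libraries known and were not matched on gene length or number of peaks, so the counts describe them and are not independent evidence. Of 22 ductal markers, 0 touched a post-caerulein window and 4 (18.2%) an untreated one. Of 23 metaplasia and progenitor genes, 6 (26.1%) touched a post-caerulein window and 0 an untreated one.

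The ductal genes in untreated windows were Prom1, Cftr, Aqp5 and Krt19. Cftr, the chloride channel of bicarbonate-secreting ducts, had 5 untreated-only peaks in its gene body, and the window was covered over 3.998 kb after caerulein and 13.8 kb without treatment. Aqp5 shared its window with Aqp2, Aqp6 and Faim2 (4 untreated-only peaks; 4.65 and 27.4 kb), and the widest peak, 12707 bp with a score of 3100, covered its start. The Krt19 window was covered over 41.5 and 55.1 kb, but its 3 untreated-only peaks lay off Krt19 itself (100140810 to 100145926): the strongest, scoring 1254.21, covered the starts of Krt13, a keratin of stratified epithelia. Of these windows, those of Aqp5 and Krt19 met the rule at the lower-quartile score limit, and those of Prom1 and Cftr did not.

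The metaplasia and progenitor genes in post-caerulein windows were Tff1, Tff2, Tff3, Hmga2, Notch2 and Cd44. The 3 trefoil factor genes, which encode mucosal repair peptides made with gastric and intestinal mucus, are neighbours and count as 1 window (chromosome 17, 31100001 to 31200000). It had 5 post-caerulein-only peaks of 112.42 to 504.77, over an end of Tff3, an end of Tff2 and the body of Tff1 among other places, and was covered over 22.5 kb after caerulein and 8.17 kb without treatment. Hmga2 touched 2 adjoining windows, with 3 post-caerulein-only peaks in each and 66.3 and 25.3 kb covered in all. The Notch2 window, of a receptor gene that guides duct and progenitor fate, had 4 such peaks (72.0 and 54.7 kb), and that of the adhesion receptor gene Cd44 had 3 (28.8 and 23.0 kb). The Cd44 window starts at 102900001 on chromosome 2 and takes in only an edge of the gene (102811141 to 102901669). Of the windows of these genes, only the trefoil one still met the rule at the lower-quartile score limit.

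Of 23 acinar genes, 4 touched post-caerulein windows and 1 an untreated window. Nr5a2, which encodes a nuclear receptor needed for acinar gene expression, touched 2 adjoining post-caerulein windows with 4 and 3 list-only peaks, and together they were covered over 57.7 kb after caerulein and 27.6 kb without treatment. A list-only peak with a score of 127.13 covered a start of Nr5a2. Gata6 and Mecom, transcription factor genes, had 4 peaks each in windows of 50.9 and 35.6 kb and of 49.3 and 26.4 kb. Prss2, a trypsinogen gene, had 3 (13.2 and 6.36 kb). Gata4 touched an untreated window with 3 untreated-only peaks of 55.28 to 111.39 (49.2 kb after caerulein and 56.9 kb without treatment). That window ends at 63200000 on chromosome 14, so it takes in only an edge of Gata4 (63198914 to 63271712). None of these 6 windows met the rule at the lower-quartile score limit.

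Growth factor signalling and Wnt and Hippo genes touched windows as follows, with lengths given after caerulein and without treatment. Of 31 EGFR and MAPK genes, 5 (16.1%) touched one and 0 an untreated one: Tgfa, an EGFR ligand gene (33.2 and 17.3 kb), Ets1, a transcription factor gene downstream of MAPK (42.4 and 26.7 kb), Map2k1, the MEK1 kinase gene (38.1 and 30.8 kb), and the feedback inhibitor genes Spry1 (24.0 and 17.6 kb) and Spred2 (54.7 and 43.7 kb). Wnt and Hippo genes numbered 4 of 25 (16.0%) and 1. Those on the post-caerulein side were the ligand gene Wnt7b (68.1 and 60.6 kb), the co-receptor gene Lrp5 (48.1 and 38.5 kb), the transcription factor gene Tead1 (50.5 and 38.6 kb) and the kinase gene Lats2 (26.1 and 19.6 kb), with 3 list-only peaks each; Tcf7l2, the nuclear effector gene of Wnt signalling, was on the untreated side (34.6 and 43.6 kb). Of these 10 genes only Tgfa lay in a window that met the rule at the lower-quartile score limit.

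TGF-beta and epithelial-mesenchymal transition genes numbered 2 of 24 and 1. Itgb6, whose integrin activates TGF-beta, touched 2 adjoining post-caerulein windows with 4 list-only peaks each (85.8 and 52.8 kb in all), and one peak, scoring 67.81, covered a start. Ccn1, a matricellular gene, was in a window with 6 (32.3 and 19.1 kb), and the untreated window was that of Tgfbr2. NF-kB and cytokine genes numbered 2 of 32 and 0: Birc3, an inhibitor of apoptosis (25.3 and 12.4 kb), and the chemokine gene Cxcl5 (46.0 and 32.5 kb), whose 3 peaks scored 62.08 to 73.56. Interferon genes were split 2 and 2 of 21. Ifngr1, a receptor chain (48.6 and 34.6 kb), and the kinase gene Jak1 (6 peaks; 22.1 and 11.0 kb) touched post-caerulein windows. The interferon-induced Samd9l and Oasl2 touched untreated windows, of which Oasl2 had 2 with 3 untreated-only peaks each.

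Markers of other cell types were counted in the same way. Of 18 endocrine, 16 mesenchymal and 13 endothelial genes 0 touched a window of either direction, as did 0 of 20 AP-1 and immediate early genes and 0 of 18 housekeeping genes. At the rates over all genes, counts of 0 are common in lists of this size, and many of the AP-1 and housekeeping genes are short, with list medians of 5.16 and 5.13 kb. Of 15 immune genes, 2 (13.3%) touched untreated windows, against 2.20% of all genes, and 0 a post-caerulein one. The window of Spi1, a myeloid transcription factor gene, also holds Mybpc3, Madd and Nr1h3 and had 3 untreated-only peaks of 144.94 to 1606.61 (5.90 kb after caerulein and 15.7 kb without treatment), of which the weakest lay over Spi1, and the Fcgr3 window had 3 of 54.13 to 101.61 (6.17 and 10.7 kb). In cultures of this kind a change in the share of a cell type and a change in acetylation per cell cannot be told apart.

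**Figure D5:**
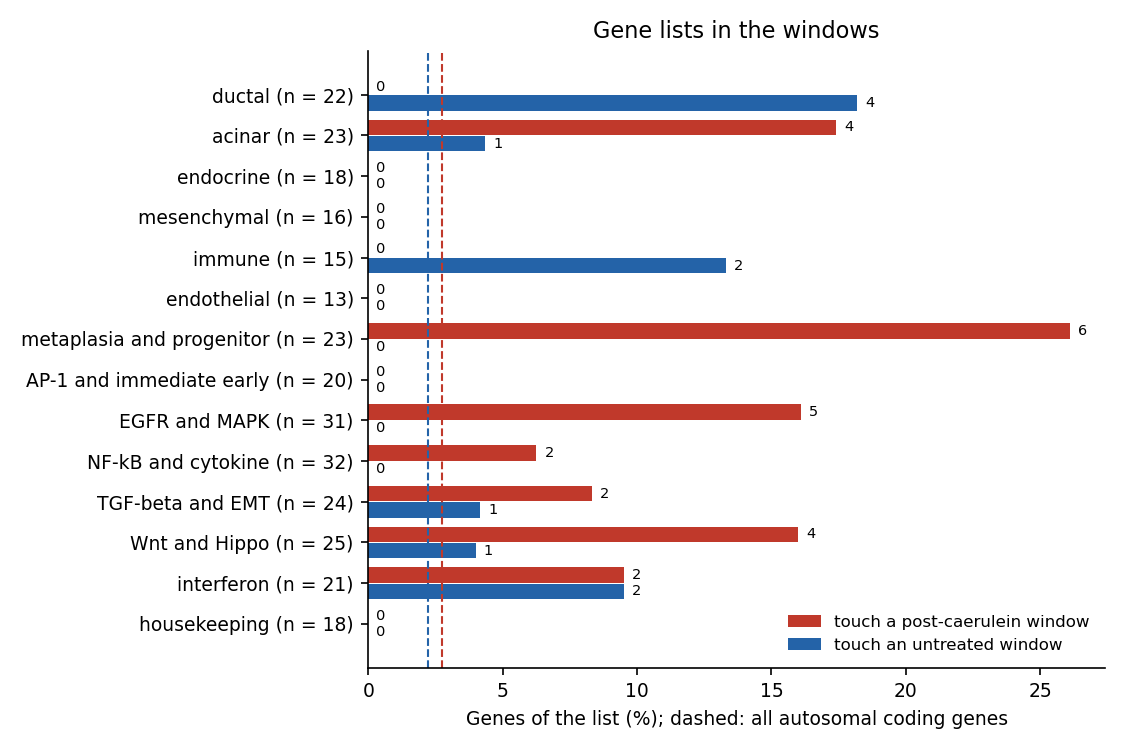
Percentage of the genes of each list whose body touches a post-caerulein window (upper bar, with the number of genes) or an untreated window (lower bar); dashed lines give the share of all autosomal protein-coding genes, 2.75% and 2.20%. The bars of the ductal list lie on the untreated side alone and those of the metaplasia and progenitor and the EGFR and MAPK lists on the post-caerulein side alone.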

How the data were processed

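H3K27ac chromatin immunoprecipitation libraries of untreated and post-caerulein spheroids were used, 1 each; GEO's labels gave the groups. Per the submitters' processing notes the authors used Trimmomatic 0.38, Bowtie2 2.2.6, SAMtools and MACS 1.4 with GRCm38 (mm10). The deposited lists hold a position, a name of the MACS form and a score per peak, called per library; the control and options are not given in the sources used here. Deposited scores have no defined scale and no read counts come with them, so the depth is unknown.

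A peak was list-only when no base of it overlapped the other list (counts checked with bedtools 2.31.1); such peaks were placed by midpoint in 100 kb windows of chromosomes 1 to 19. The window code was tested on simulated data. Covered length was cut at window borders. Protein-coding genes came from RefSeq (GRCm38.p6); promoters of chromosome 18 were not analysed here. A planned motif search around peak middles needs a genome and was replaced by promoters. Intervals beside shares are Clopper-Pearson (exact, 95%) and reflect the number of windows or peaks alone. Scripts used Python 3.11.15, numpy 2.4.6, pandas 2.3.3 and scipy 1.17.1.

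The windows, gene lists and rules were chosen with earlier results of these data known. Named windows are, per direction, the 12 with most list-only peaks, the 6 with the highest score, the longest runs and those of listed genes, up to 4 per list; predicted genes are not named. One window of the rule is not reported here. The 3 promoters printed per direction, the windows without a peak of the other list and the score-limited windows were chosen after their values were seen.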

Additional observations from a re-analysis of the deposited data

Results flagged for a closer look

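Chromosome X lies outside the windows described above. By the same rule it had 4 post-caerulein windows and 12 untreated windows among 412 windows with a peak (0.971% and 2.91%), against 3.69% and 2.27% on the autosomes. These counts were set apart because they exceed the 3 that a count of 0 allows in data outside the main measurement; they were not tested. The X untreated windows held Clcn5, Cask, Fundc1, Dock11, Ocrl, Nhsl2 and Mid1 among others.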

How the results depend on the processing

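No paired analysis was possible because the H3K27ac libraries number 1 per condition, and no library could be left out. Over 13 alternatives, 74 values moved by less than their interval or stayed within 1.5 times, 68 moved beyond and 1 reversed. The values as reported are 420 and 258 windows, a difference of 162, median log2 ratios of covered length of 0.808 and -0.957, and gene ends in 64.05% and 72.48% of windows (post-caerulein first). The cause of the changes below was not tested.

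Windows of 50 kb gave a difference of 99, ratios of 1.033 and -1.267 and gene ends in 37.76% and 51.87%; windows of 200 kb gave 0.676 and -0.664 and 80.72% and 86.14%. A grid shifted by 50 kb gave a post-caerulein ratio of 0.758. At least 4 peaks gave 181 and 106 windows, a difference of 75, ratios of 0.891 and -1.211 and gene ends in 67.4% and 66.04%, an order opposite to that reported. At least 2 peaks gave 1134 and 788 windows, a difference of 346 and ratios of 0.696 and -0.726. Allowing 1 peak of the other list gave 0.749 and -0.787.

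The score limits moved the counts most. The lower quartile gave 54 and 50 windows, a difference of 4 and ratios of 1.434 and -1.493, with 50 and 47 of the reported windows among them. The median gave 2 and 4 windows, a difference of -2, ratios of 2.064 and -1.879 and gene ends in 0% and 100%. Counting peaks within 1 kb of the other list as shared gave 0.894 and -1.105. Joining peaks within 1 kb gave 208 and 138 windows, a difference of 70 and ratios of 0.987 and -1.150. Taking 36846 peaks of each list gave a difference of 61. An overlap of 50% and placement in every window touched moved none of these values.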
